A study of Mus musculus with 12 samples.

Results

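TGF-beta ligands, latency proteins and receptors were described in hernia-associated fibroblasts (HAFs) as a set of 10 mouse genes chosen by name: the ligands Tgfb1, Tgfb2 and Tgfb3, the latent TGF-beta binding proteins Ltbp1, Ltbp2, Ltbp3 and Ltbp4, and the receptors Tgfbr1, Tgfbr2 and Tgfbr3. All 10 were among the 13233 genes listed in the RNA-Seq table. The rule uses names and no measured value, but it was written with earlier results of these data known. The 12 samples came from primary fibroblasts of the lower abdominal muscle (LAM) of Aromhum mice, which carry the human aromatase gene, and all 4 groups share this genotype. The cells were starved of serum and then kept for 48 h in 1 of 4 conditions, with 3 samples each: vehicle (ethanol and DMSO), E2 (10 nM estradiol), E2 plus fulvestrant (10 nM and 100 nM), and fulvestrant alone (100 nM). Fulvestrant is an antagonist of the estrogen receptor that also promotes loss of the receptor protein, and it was given before E2. Per the study, the work was done in male mice. The age of the mice behind these cultures, and whether same-numbered samples shared an animal, were not given in the sources used here, so the p-values measure the spread between these samples. Cells of wild-type mice were not part of this comparison.

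TGF-beta is a secreted growth factor that drives fibroblasts to deposit extracellular matrix. Each ligand is made with its propeptide, which stays wrapped around it and keeps it inactive, and most LTBP proteins tether this latent complex to fibrillin and fibronectin fibers until integrins, proteases or mechanical pull release the ligand. Free ligand is bound by the type II receptor TGFBR2, which recruits and activates the type I receptor TGFBR1, and SMAD2 and SMAD3 then carry the signal to the nucleus. TGFBR3, also called betaglycan, is a co-receptor that presents the ligands, TGF-beta2 above all, to TGFBR2.

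Lower levels of 4 of the 10 genes accompanied fulvestrant, with or without E2. Of all genes, 4.62% were called lower with fulvestrant in the presence of E2 and 5.69% in its absence. Tgfb2, Ltbp1, Ltbp2 and Ltbp3 were each higher in E2 than in E2 plus fulvestrant and higher in vehicle than in fulvestrant alone. Those comparisons share no sample, but both came from the same fit of all 12 samples, with shared replicate terms and shared spread. Their p-values are therefore not independent. Fits of only the groups compared, within replicate numbers, called 4 of these genes with E2 present and 3 without E2. Ltbp3 was lost in the latter (limma adjusted p = 0.0813). None of the 10 passed the test between E2 and vehicle or between E2 plus fulvestrant and fulvestrant. The receptors Tgfbr2 and Tgfbr3 were shifted in opposite directions by smaller or less certain amounts, and Tgfb1, Tgfb3 and Tgfbr1 passed the test in no comparison. These calls came from a fit that compares samples within a replicate number, and without it 7 of the 8 were lost with all 12 samples in the fit and all 8 with only the groups compared.

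Values are normalized counts, which are reads per gene divided by a factor per sample. Reads on the listed genes ran from 18827792 to 44040507 per sample. Every listed gene had at least 10 reads in every sample, so genes that fell to very low counts would not be in the table, and all 10 genes described here passed that limit. The samples with replicate number 1 stood apart in every group. Lpl, a lipase made by fat-forming cells and also by other cells, ranged from 1919 to 3454 normalized counts in the replicate 1 samples and from 31513 to 38167 in the others. The summed level of 9 fibroblast markers, all of them listed, was 364181 to 407335 with E2, 273036 to 314645 with E2 plus fulvestrant, 306277 to 373448 with vehicle and 246040 to 323051 with fulvestrant. Of these markers, 3 (Esr1, Col1a2 and Col3a1) were called higher in E2 than in E2 plus fulvestrant. None of 8 myogenic and none of 6 epithelial and mesothelial markers was listed. Of 6 endothelial markers only Tek was listed, at 58.4 to 277 normalized counts, and of 6 leukocyte markers Cd68, Lyz2 and Cd14 were listed without Ptprc, at a sum of 168 to 487. Of 3 glial markers S100b was listed, at 40.1 to 100.6 normalized counts with E2 and 16.5 to 52.2 with E2 plus fulvestrant, and was called higher in E2. The mural list had 3 of 6 (Cspg4, Mcam and Myh11, 1977 to 4392) and the adipocyte list 1 of 4, which is Lpl. Less RNA per cell and fewer cells of a type cannot be told apart in these bulk samples, and the part of such cells in the results below was not tested. As a check of the treatment labels, the estrogen receptor target Pgr was 145 to 304 normalized counts with E2 and 14.8 to 28.4 with E2 plus fulvestrant.

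The stretch of DNA before the start of each gene is shown for 3 of the 4 genes that were lower with fulvestrant, since these moved together. Windows of 250 bases before RefSeq starts on GRCm38.p6 (mm10 coordinates) were found for 8 of the 10 genes, in 12 windows, and Tgfb3 and Tgfbr3 had no entry. Each was searched on both strands for the palindromic estrogen response element (GGTCA, any 3 bases, then TGACC), its single arm GGTCA, the SMAD box GTCTAGAC, the SMAD core GTCTG, the AP-1 motif TGACTCA and the CRE motif TGACGTCA. A single arm lies within every full estrogen response element, and the SMAD core does not lie within the SMAD box. The Tgfb2 window is chr1:186705990-186706239 on the minus strand, the Ltbp1 window is chr17:75005279-75005528 on the plus strand before the upstream of its 2 RefSeq starts, and the Ltbp3 window is chr19:5740650-5740899 on the plus strand. Capitals mark the matches, and each sequence reads 5′ to 3′ along the gene.
Tgfb2: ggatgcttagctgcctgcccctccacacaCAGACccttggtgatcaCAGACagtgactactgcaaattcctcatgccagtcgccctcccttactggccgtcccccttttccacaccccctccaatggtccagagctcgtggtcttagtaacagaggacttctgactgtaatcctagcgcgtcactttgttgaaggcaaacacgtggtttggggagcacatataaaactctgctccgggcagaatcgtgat
Ltbp1: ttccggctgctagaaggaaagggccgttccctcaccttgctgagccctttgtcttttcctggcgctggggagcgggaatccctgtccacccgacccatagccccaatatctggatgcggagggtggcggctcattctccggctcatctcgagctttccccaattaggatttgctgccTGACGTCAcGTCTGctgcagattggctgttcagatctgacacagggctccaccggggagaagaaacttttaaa
Ltbp3: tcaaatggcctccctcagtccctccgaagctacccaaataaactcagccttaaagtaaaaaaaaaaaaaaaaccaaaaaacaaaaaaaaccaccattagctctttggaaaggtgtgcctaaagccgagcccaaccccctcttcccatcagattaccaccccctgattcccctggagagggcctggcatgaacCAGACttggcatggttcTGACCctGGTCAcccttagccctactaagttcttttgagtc
The Tgfb2 window held 2 SMAD cores, at -221 to -217 and -204 to -200 from the start, and the Ltbp1 window held a CRE motif at -73 to -66 followed by a SMAD core at -64 to -60. In the Ltbp3 window an estrogen arm on each strand stood side by side, at -41 to -37 and -34 to -30, in the outward orientation rather than that of the full element. No window of the 8 genes held the full estrogen response element, the SMAD box or AP-1, which are in 0.0639%, 0.167% and 4.46% of all 32851 such windows. The single arm was in 4 of the 12 windows (35.2% of all windows), the SMAD core in 7 (42.2%) and the CRE motif in 1 (1.55%). A match is a run of letters only, and motifs farther away were not searched.

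Per length of exon, the receptors Tgfbr3 and Tgfbr2 were the most abundant of the 10 genes and Tgfb2 and Tgfb1 the least. On the scale of normalized counts per kb, the mean over 12 samples was 3260 for Tgfbr3 (SD 705) and 2510 for Tgfbr2 (SD 249), with overlapping ranges. Ltbp3 followed at 1217 (SD 184), below both receptors in every sample. Tgfb3 was at 825 (SD 495), Ltbp4 at 609 (SD 303) and Ltbp1 at 572 (SD 202), and neighbours among these overlapped. The place of Ltbp4 above Ltbp1 rests on the replicate 1 samples. In replicate 2 the mean over the 4 groups was 508 for Ltbp1, 487 for Tgfb3 and 414 for Ltbp4. In replicate 3 it was 494 for Tgfb3, 473 for Ltbp1 and 405 for Ltbp4. Tgfbr1 was at 341 (SD 19.9), the narrowest relative spread, with its highest sample at 372 and the lowest Ltbp1 sample at 392. Ltbp2 was at 229 (SD 114), Tgfb2 at 103 (SD 31.2) and Tgfb1 at 99.1 (SD 10.4), again with overlaps between neighbours. Thus Tgfb3 was the ligand with the highest level in these cells, at 1493 per kb in the replicate 1 samples and 487 and 494 in replicates 2 and 3, above the other ligands in all 12 samples. Dividing by the longest transcript instead of all exons put Ltbp1 in the fourth place and Tgfb1 above Tgfb2.

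**Figure D1:**
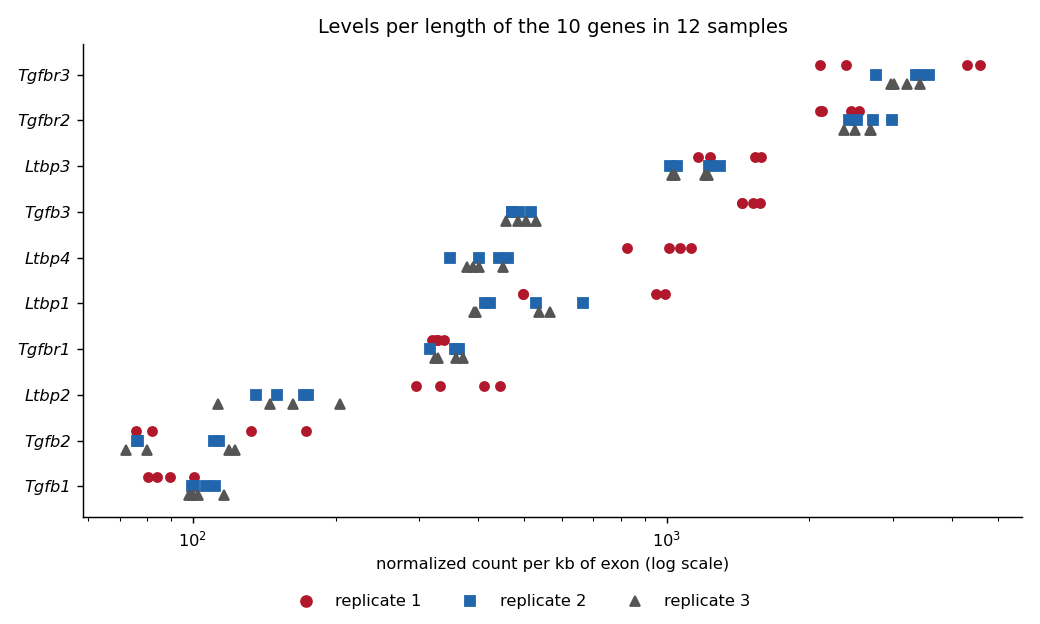
Normalized counts per kb of exon on a log axis for the 10 genes, with 1 point per sample (12 per gene) and the marker giving the replicate number. Tgfbr3 and Tgfbr2 lie at 2102 or higher, Tgfb1 and Tgfb2 at 173 or lower, and the replicate 1 samples of Tgfb3, Ltbp4 and Ltbp2 form a separate higher cluster.

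Comparing E2 with E2 plus fulvestrant asked what the antagonist does when estradiol is present. Of the 10 genes, 4 were called higher with E2, against 4.62% of all 13233 genes, and 0 were called lower, against 4.97%. Comparing vehicle with fulvestrant asked the same without added E2. Again 4 were called higher without fulvestrant (5.69% of all genes) and 0 lower (6.76%). A call needed an adjusted p under 0.05 and a fold change over 1.2 in limma, with the replicate number as a block and Benjamini-Hochberg adjustment over all genes. At an unadjusted p under 0.05, 0 of the 10 were lower in the first comparison and 2, Tgfbr1 and Tgfbr3, in the second. The median log2 difference of the 10 genes was 0.21 in each comparison, beside -0.01 and -0.01 over all genes. Without the block, 0 of the 10 were called by limma in the first comparison (0.287% of all genes, and 3 of the 10 had an unadjusted p under 0.05) and 1, Tgfb2, in the second (0.242%).

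**Figure D2:**
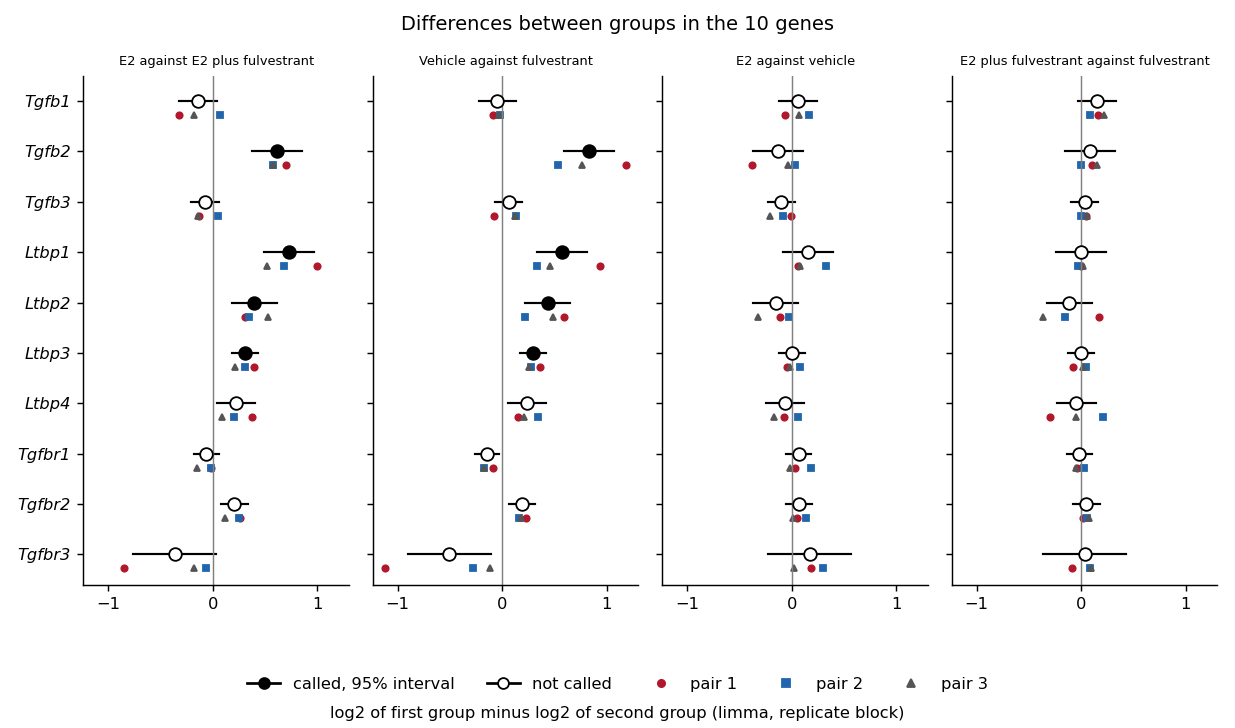
Log2 difference between groups for the 10 genes in 4 comparisons, with the limma estimate and its 95% interval (filled when called) and, below each, the differences within the 3 same-numbered pairs. Tgfb2, Ltbp1, Ltbp2 and Ltbp3 are filled in both comparisons that differ by fulvestrant, and no gene is filled in the comparisons that differ by E2.

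Among the ligands, only Tgfb2 was called. Tgfb2 (ENSMUSG00000039239, chromosome 1 from 186622792 to 186705989, minus strand) encodes TGF-beta2, the isoform that depends most on betaglycan for receptor binding. Its normalized counts in replicates 1, 2 and 3 were 769, 657 and 690 with E2 and 474, 441 and 464 with E2 plus fulvestrant. With vehicle they were 1002, 643 and 710, and with fulvestrant alone 440, 443 and 418. All 6 samples without fulvestrant lay above all 6 samples with it. Its log2 difference was 0.61 ± 0.11 (SE) between E2 and E2 plus fulvestrant (limma adjusted p = 0.00486) and 0.83 ± 0.11 between vehicle and fulvestrant (adjusted p = 0.000745), and the pairs were positive in 3 of 3 each time. Without the replicate block the adjusted p was 0.148 and 0.0431 with all samples, and 0.192 and 0.399 with only the groups compared. The vehicle sample of replicate 1 was the highest of the 12, and its pair differed by 1.19 beside 0.54 and 0.76 in the others. Leaving out all replicate 2 samples or all replicate 3 samples raised the first adjusted p to 0.0539 and 0.089 at log2 differences of 0.64.

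Tgfb3 (ENSMUSG00000021253, chromosome 12 from 86056745 to 86079041, minus strand) encodes TGF-beta3, and its values followed the replicate number. Replicate 1 held 4876 normalized counts with vehicle, 4865 with E2, 5320 with E2 plus fulvestrant and 5146 with fulvestrant. The other 8 samples lay between 1548 and 1789. Replicate number accounted for 99.3% of the sum of squares of its log2 values and treatment for 0.241%, beside medians over all genes of 57.7% and 17.9%. Its log2 difference was -0.07 ± 0.06 between E2 and E2 plus fulvestrant (limma adjusted p = 0.458) and 0.06 ± 0.06 between vehicle and fulvestrant (adjusted p = 0.541), with 95% intervals of -0.20 to 0.06 and -0.07 to 0.19. Of its exon sequence, 12.4% lies opposite exons of Gm37804 and Gm48008, and the authors counted by strand.

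Tgfb1 (ENSMUSG00000002603, chromosome 7 from 25687002 to 25705077, plus strand), the isoform best known in fibrosis, ranged from 405 to 587 normalized counts over the 12 samples. Its group means were 473 ± 43.1 (SD, n = 3) with vehicle, 495 ± 80.7 with E2, 543 ± 41.0 with E2 plus fulvestrant and 488 ± 31.3 with fulvestrant, and the groups of each comparison overlapped. On the log2 scale it differed by -0.14 ± 0.08 between E2 and E2 plus fulvestrant (limma adjusted p = 0.286) and -0.05 ± 0.08 between vehicle and fulvestrant (adjusted p = 0.747). The ratio of Tgfb2 to Tgfb1 counts therefore lay above 1 in all 6 samples without fulvestrant (1.17 to 2.37) and below 1 in all 6 with it (0.790 to 0.974). Counts of genes of unequal length give a ratio that can be compared between samples but not read as relative abundance.

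**Figure D3:**
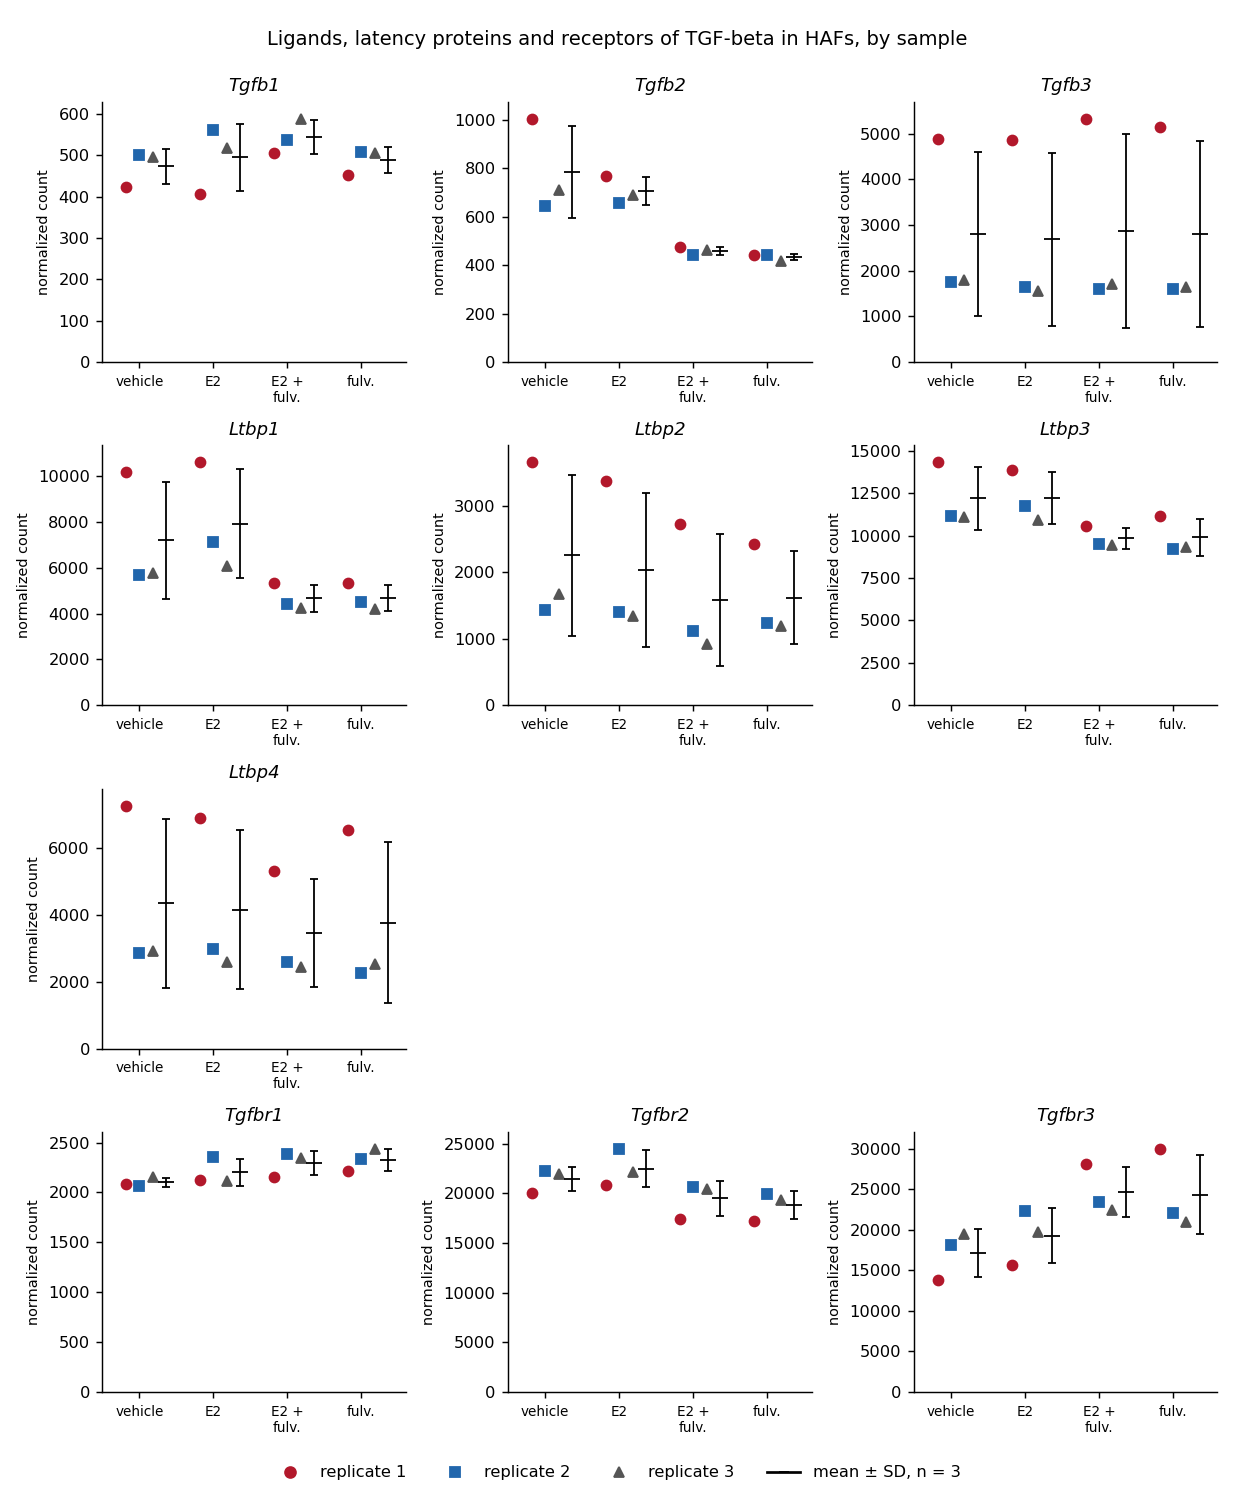
Normalized counts of the 10 genes in the 12 samples by treatment group, with 1 marker per replicate number and the mean ± SD of each group (n = 3). For Tgfb2 and Ltbp1 every sample without fulvestrant lies above every sample with it, and for Tgfb3, Ltbp2 and Ltbp4 the replicate 1 samples lie far above replicates 2 and 3 in each group.

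Of the latency proteins, Ltbp1, Ltbp2 and Ltbp3 were lower with fulvestrant, and Ltbp4 moved in the same direction without being called. Ltbp1 (ENSMUSG00000001870, chromosome 17 from 75005568 to 75392512, plus strand) is a main carrier of latent TGF-beta in matrix. Its counts were 10586, 7105 and 6060 with E2 and 5317, 4428 and 4240 with E2 plus fulvestrant. With vehicle they were 10149, 5676 and 5754, and with fulvestrant 5325, 4519 and 4189. Here too the samples with and without fulvestrant did not overlap. Ltbp1 had a log2 difference of 0.73 ± 0.11 in the presence of E2 (limma adjusted p = 0.00188) and 0.57 ± 0.11 in its absence (adjusted p = 0.00593). Replicate 1 gave the widest pair both times, at 0.99 and 0.93, beside 0.68 and 0.52 in the presence of E2 and 0.33 and 0.46 in its absence. The adjusted p without the replicate block was 0.452 and 0.637. Ltbp1 kept its call in 15 of 15 fits that left out 1 sample or 1 replicate number for the first comparison and in 14 of 15 for the second, where the exception was without replicate 3 (0.63, adjusted p = 0.0691).

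Ltbp3 (ENSMUSG00000024940, chromosome 19 from 5740904 to 5758532, plus strand), another LTBP that binds the latent complex and the one with the highest level in HAFs, changed less. Its counts were 13895, 11763 and 10946 with E2 and 10559, 9516 and 9457 with E2 plus fulvestrant, which do not overlap. With vehicle they were 14315, 11157 and 11100, and with fulvestrant 11167, 9221 and 9325, so that the replicate 1 fulvestrant sample reached the lower vehicle samples. On the log2 scale the differences were 0.30 ± 0.06 (limma adjusted p = 0.00598) and 0.29 ± 0.06 (adjusted p = 0.00577), and all 6 pairs were positive. Without the replicate block the adjusted p was 0.654 and 0.641, and with the block and only the groups compared the second call was lost (adjusted p = 0.0813). The fold changes of 1.23 and 1.23 lie just above the 1.2 threshold: without replicate 1 the first fell to 0.26 on the log2 scale, just under it, at an adjusted p of 0.0134, and without the vehicle replicate 1 sample the second fell to 0.25 (adjusted p = 0.0243). Leaving out the E2 plus fulvestrant replicate 1 sample also brought the first to 0.25 (adjusted p = 0.0383). Without replicates 2 or 3 the adjusted p lay between 0.0725 and 0.102.

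Ltbp2 (ENSMUSG00000002020, chromosome 12 from 84783212 to 84876532, minus strand) encodes the LTBP that does not bind latent TGF-beta and is a component of microfibrils. Replicate 1 held 3373 normalized counts with E2, 2721 with E2 plus fulvestrant, 3647 with vehicle and 2420 with fulvestrant. In replicates 2 and 3 it had 1408 and 1334 with E2, 1110 and 923 with E2 plus fulvestrant, 1435 and 1670 with vehicle, and 1233 and 1190 with fulvestrant. The groups overlapped, and the difference was seen within replicate numbers, with log2 values of 0.39 ± 0.10 (limma adjusted p = 0.0252) and 0.43 ± 0.10 (adjusted p = 0.0134) and 3 of 3 pairs positive each time. Without the replicate block the adjusted p was 0.995 and 0.957. Of the 15 fits that left out a sample or a replicate number, 7 lost the first call (8 kept it), including any 1 of the E2 samples (adjusted p from 0.069 to 0.0796). Leaving out the E2 plus fulvestrant replicate 3 sample gave the lowest difference, 0.28 (adjusted p = 0.117). For the second comparison 12 of 15 kept it, and without vehicle replicate 3 it was 0.34 (adjusted p = 0.072). Of its exon sequence, 9.34% lies opposite exons of D030025P21Rik.

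Ltbp4 (ENSMUSG00000040488, chromosome 7 from 27305136 to 27337692, minus strand) encodes an LTBP that takes part in elastic fiber assembly. It had 7270, 2865 and 2917 normalized counts with vehicle, 6888, 2989 and 2594 with E2, 5328, 2598 and 2444 with E2 plus fulvestrant, and 6538, 2256 and 2523 with fulvestrant. All 6 pairs were higher without fulvestrant, but the log2 differences of 0.22 ± 0.08 (limma adjusted p = 0.111) and 0.24 ± 0.08 (adjusted p = 0.078) were not called. In the comparison of vehicle with fulvestrant it was called under quantile normalization (0.28, adjusted p = 0.0398), CPM (0.27, adjusted p = 0.0393) and without replicate 1 (0.28, adjusted p = 0.0336). Replicate number took 94.7% of its sum of squares, 85.5% of that of Ltbp2, 40.3% of that of Ltbp3 and 33.9% of that of Ltbp1. On average over the groups, replicate 1 exceeded replicates 2 and 3 by 2.45-fold for Ltbp4, 2.36-fold for Ltbp2, 1.44-fold for Ltbp1 and 1.21-fold for Ltbp3. The count ratio of Ltbp1 to Ltbp3 was 0.509 to 0.762 without fulvestrant and 0.448 to 0.503 with it, a difference that was not tested.

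Among the receptors, Tgfbr2 was slightly lower and Tgfbr3 higher with fulvestrant, with no overlap between groups in either comparison, and neither was called. Tgfbr2 (ENSMUSG00000032440, chromosome 9 from 116084293 to 116175360, minus strand), the ligand-binding type II receptor, had 20833, 24460 and 22125 normalized counts with E2 and 17411, 20620 and 20408 with E2 plus fulvestrant. Vehicle samples held 20069, 22260 and 21932 and fulvestrant samples 17205, 19885 and 19365. Its log2 difference was 0.21 ± 0.06 (limma adjusted p = 0.0395) and 0.19 ± 0.06 (adjusted p = 0.0477), which passed the p threshold while the fold changes of 1.15 and 1.14 were under 1.2. Without the replicate block the adjusted p was 0.780 and 0.836. It also missed the p threshold with the block and only the groups compared (0.103 and 0.279) and without any 1 of the replicate numbers (0.0962 to 0.288 and 0.0927 to 0.279).

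Tgfbr3 (ENSMUSG00000029287, chromosome 5 from 107106570 to 107289629, minus strand), the betaglycan gene, had 15628, 22366 and 19771 normalized counts with E2 and 28137, 23386 and 22433 with E2 plus fulvestrant. With vehicle it had 13758, 18134 and 19427, and with fulvestrant 29953, 22006 and 21006. Replicate 1 had the lowest values without fulvestrant and the highest with it. The log2 difference was -0.36 ± 0.18 (limma adjusted p = 0.222) and -0.50 ± 0.18 (adjusted p = 0.0837), and all 6 pairs were negative. The replicate 1 pairs differed by -0.85 and -1.12, and the remaining pairs by -0.06 to -0.28. Without replicate 1 the difference was -0.12 with E2 present and -0.20 without. Of its exon sequence, 4.54% is shared on the same strand with Gm43422, so a small part of its reads may belong to that gene.

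Tgfbr1 (ENSMUSG00000007613, chromosome 4 from 47353222 to 47414931, plus strand), the type I kinase receptor, varied least. Its counts were 2068 to 2149 with vehicle, 2118 to 2353 with E2, 2154 to 2384 with E2 plus fulvestrant and 2216 to 2431 with fulvestrant. The fulvestrant samples lay above the vehicle samples, by -0.15 ± 0.05 on the log2 scale for vehicle minus fulvestrant (limma adjusted p = 0.09), and the E2 comparison gave -0.06 ± 0.05 (adjusted p = 0.497). Over all 10 genes, 4 had E2 samples entirely above the E2 plus fulvestrant samples (6.54% of all genes did) and 1 entirely below (5.97%). Between vehicle and fulvestrant, 3 lay entirely above (5.45%) and 2 entirely below (5.7%).

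Of the 3 ratios between receptor counts, 2 did not overlap between the samples with and without fulvestrant, although none of the 3 genes was called. The ratio of Tgfbr3 to Tgfbr2 counts was 0.686, 0.815 and 0.886 with vehicle and 0.750, 0.914 and 0.894 with E2. It was 1.62, 1.13 and 1.10 with E2 plus fulvestrant and 1.74, 1.11 and 1.08 with fulvestrant. All 6 samples without fulvestrant lay below 1 and all 6 with it above 1. Relative to Tgfbr1, Tgfbr2 counts fell from 9.62 to 10.8 without fulvestrant to 7.76 to 8.69 with it, again with no overlap. The ratio of Tgfbr3 to Tgfbr1 overlapped, at 6.59 to 9.51 without fulvestrant and 8.64 to 13.5 with it. These ratios were not tested as such, and how many other gene pairs separate in this way was not counted. A ratio of 1 does not mark equal abundance, because the genes differ in length.

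**Figure D4:**
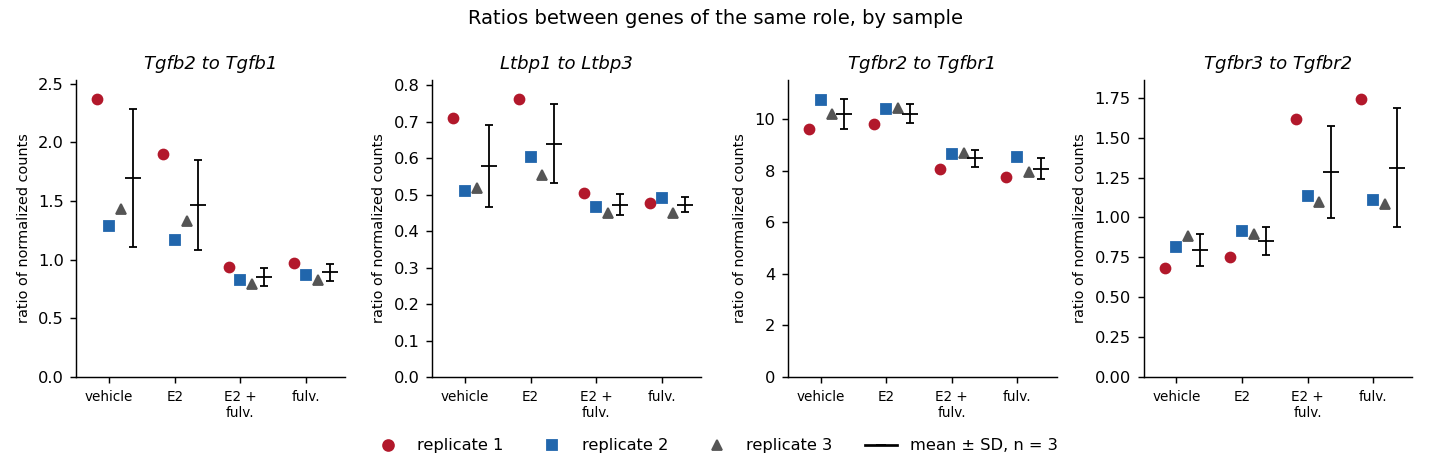
Ratios of normalized counts between genes of the same role in each of the 12 samples, with the mean ± SD of each group (n = 3). The Tgfb2 to Tgfb1 ratio is above 1 without fulvestrant and below 1 with it, and the Tgfbr3 to Tgfbr2 ratio is below 1 without fulvestrant and above 1 with it.

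E2 alone did not detectably change the 10 genes. Between E2 and vehicle, 0 of 10 were called in either direction by limma, beside 0.0756% of all genes higher and 0% lower, and 0 of the 10 had an unadjusted p under 0.05 (1340 of all genes did). The log2 differences ran from -0.15 for Ltbp2 (95% interval -0.37 to 0.06, limma adjusted p = 0.603) to 0.17 for Tgfbr3 (-0.23 to 0.57, adjusted p = 0.756). Ltbp1 differed by 0.15 (-0.09 to 0.39, adjusted p = 0.645), higher with E2 in 3 of 3 pairs. Pgr was called in the same comparison, at 1.88 ± 0.27 (limma adjusted p = 0.0343) and 3 of 3 pairs positive. That call was kept in 4 of 15 fits that left out a sample or a replicate number, and lost without replicate 2 (adjusted p = 0.981), without replicate 3 (0.455) and without the replicate block (1.00). Between E2 plus fulvestrant and fulvestrant, 0 of 10 were called, as were 0% of all genes in each direction, and 0 of the 10 had an unadjusted p under 0.05 (255 of all genes did). The differences there ran from -0.12 for Ltbp2 to 0.15 for Tgfb1. The interaction, which asks whether the fulvestrant difference depends on E2, was called for 0 of 10, with 0 unadjusted p under 0.05. It was -0.21 for Tgfb2 (95% interval -0.55 to 0.13, limma adjusted p = 0.944) and 0.16 for Ltbp1 (-0.18 to 0.50, adjusted p = 0.946). Interactions of any size within these intervals are compatible with the data.

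The genes most like Tgfb2, Ltbp1 and Tgfbr3 over the 12 samples were sought by Pearson correlation of log2 values after removing replicate means, among 11273 other genes with a mean of at least 100. Nearest to Tgfb2 were Cdh11 (r = 0.995), which encodes a fibroblast cadherin, Prrx1 (r = 0.988), a mesenchymal homeobox factor, and Abi3bp (r = 0.986), a matrix protein. Nearest to Ltbp1 were Pycr1 (r = 0.987), an enzyme of proline synthesis, Nmnat2 (r = 0.986), an enzyme of NAD synthesis, and Pcdh7 (r = 0.983), a protocadherin. Nearest to Tgfbr3 were Wipf1 (r = 0.986), an actin regulator, Sh3kbp1 (r = 0.986), an endocytic adaptor, and Aebp1 (r = 0.983), a collagen-binding matrix protein. Within the 10 genes, Tgfb2 correlated at 0.959 with Ltbp3, 0.942 with Ltbp1 and -0.835 with Tgfbr3. Points share the treatment groups, the libraries and their scaling, so these values are descriptions of likeness.

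Other genes of the pathway were counted in 3 lists. Over all genes tested, 4.62% were called higher and 4.97% lower in E2 than in E2 plus fulvestrant, and 5.69% and 6.76% in vehicle than in fulvestrant. Of 21 listed genes for latency and activation, 5 were called higher in E2 than in E2 plus fulvestrant and 1 lower, with 15 not called and a median log2 difference of 0.01. The 1 lower is near the 4.97% over all genes. Mmp9, a gelatinase that can release latent TGF-beta, was higher by 0.86 ± 0.19 (limma adjusted p = 0.0162). Fbn1, the fibrillin to which LTBP proteins bind, was higher by 0.58 ± 0.12 (adjusted p = 0.0115), Adamts6, a metalloproteinase of microfibril turnover, by 0.40 ± 0.06 (adjusted p = 0.00271) and Plat, tissue plasminogen activator, by 0.35 ± 0.06 (adjusted p = 0.00509). The fifth was Emilin1. The calls of Mmp9 and Fbn1 were each kept in 9 of 15 fits that left out a sample or a replicate number. Leaving out the replicate 2 or the replicate 3 sample of E2, or of E2 plus fulvestrant, was enough to lose them (adjusted p from 0.0522 to 0.0864 for Mmp9 and from 0.0521 to 0.0669 for Fbn1). Plat lost its call without replicate 1 (0.26, under the fold threshold), replicate 2 (adjusted p = 0.0790) or replicate 3 (adjusted p = 0.0502). Adamts6 lost its call without replicate 3 (adjusted p = 0.0651). Tgm2, the transglutaminase that crosslinks the latent complex to matrix, was lower, at -0.56 ± 0.07 (adjusted p = 0.000700). Between vehicle and fulvestrant, 5 of the 21 were higher (with Fbn2, Adamts10 and Itgb8) and 2 lower (with Itgb1), names given, like Emilin1, after their values were seen. Mmp9 (0.95, adjusted p = 0.00813), Adamts6 (0.44, adjusted p = 0.00131) and Tgm2 (-0.66, adjusted p = 0.000258) were called again. Fbn1 and Plat were not, at 0.07 (adjusted p = 0.731) and 0.09 (adjusted p = 0.353), and their E2 minus vehicle differences of 0.61 and 0.27 were not called either (adjusted p = 0.213 and 0.250). With the block and only the groups compared, Mmp9 lost its call between vehicle and fulvestrant (adjusted p = 0.0650) and 3 genes of the list were higher there. Without replicate 3, Mmp9 (adjusted p = 0.166) and Adamts6 (adjusted p = 0.0553) lost that call, and 0 of the list were higher and 1 lower by limma (5 and 4 had an unadjusted p under 0.05). Of all 13233 genes, 184 were higher and 215 lower in that fit.

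Of 16 co-receptors and ligand traps, 3 were higher in E2 than in E2 plus fulvestrant and 2 lower, beside 4.62% and 4.97% over all genes, with a median of 0.09. Lum, a small proteoglycan of collagen matrix, had 1200, 3942 and 3737 normalized counts with E2 and 625, 1312 and 1407 with E2 plus fulvestrant. Its log2 difference was 1.31 ± 0.13 (limma adjusted p = 0.000150). Sdc2, a heparan sulfate proteoglycan, was higher by 0.48 ± 0.09 (adjusted p = 0.00678) and Acvr2a, an activin type II receptor, by 0.28 ± 0.06 (adjusted p = 0.00887). The Acvr2a call was kept in 10 of 15 fits that left out a sample or a replicate number. It was lost without the E2 replicate 1 sample (0.26, under the fold threshold), without the E2 plus fulvestrant replicate 3 sample (adjusted p = 0.0526) and without any 1 of the replicate numbers. Acvrl1, the type I receptor ALK1, was lower, at -0.69 ± 0.11 (adjusted p = 0.00289) and so was Vasn, a TGF-beta trap, at -0.32 ± 0.06 (adjusted p = 0.00729). Without replicate 2, Sdc2 (adjusted p = 0.100) and Vasn (adjusted p = 0.0699) lost their calls too. That left 1 gene of the list higher and 1 lower, beside 164 and 178 of all 13233 genes. Without replicate 3, Sdc2 (adjusted p = 0.0562), Vasn (adjusted p = 0.105) and Acvrl1 (adjusted p = 0.0589) lost theirs. In the main fit all 5 genes were called in the same direction between vehicle and fulvestrant. There 4 were higher, Fmod among them (also named after its values were seen), and 2 lower, beside 5.69% and 6.76% over all genes. With the block and only the groups compared, Sdc2 lost that call (adjusted p = 0.0534) and 2 genes, Lum and Acvr2a, were higher.

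Of 19 transducers and targets, 2 were higher in E2 than in E2 plus fulvestrant and 1 lower, with 16 not called and a median of -0.01. These counts are close to the 4.62% and 4.97% over all genes, and nothing is read from them about the list. Between vehicle and fulvestrant, 3 of the 19 were higher and 1 lower, beside 5.69% and 6.76% over all genes. Postn, a matricellular protein induced by TGF-beta, was higher by 0.75 ± 0.10 (limma adjusted p = 0.000739) and Col1a1, the collagen I chain, by 0.67 ± 0.09 (adjusted p = 0.00133). Between vehicle and fulvestrant they were higher by 0.96 (adjusted p = 0.000155) and 0.43 (adjusted p = 0.0119), and Col1a1 lost that call with the block and only the groups compared (adjusted p = 0.112). Timp1, a metalloproteinase inhibitor, was lower, at -0.54 ± 0.11 (adjusted p = 0.00962) and at -0.87 ± 0.11 between vehicle and fulvestrant (adjusted p = 0.000589). Smad3 had a log2 difference of 0.25 ± 0.06, under the fold threshold (adjusted p = 0.0187), and was called at 0.32 ± 0.06 between vehicle and fulvestrant (adjusted p = 0.00450). The first difference was called under quantile normalization (0.28, adjusted p = 0.00742), CPM (0.27, adjusted p = 0.0121) and without the E2 plus fulvestrant replicate 2 sample (0.31, adjusted p = 0.0227). The second call was lost without replicate 3 (0.30, adjusted p = 0.121). Without the replicate block, 0 genes of the 3 lists were called by limma in either comparison, while 5 higher and 3 lower, then 6 higher and 5 lower, had an unadjusted p under 0.05. Without replicate 3, the counts in the E2 comparison were 0 higher and 1 lower for latency and activation, 1 and 0 for co-receptors and traps, and 1 and 0 for transducers and targets. In the vehicle comparison they were 2 and 1 for co-receptors and traps and 1 and 1 for transducers and targets. Of all 13233 genes, 178 were higher and 138 lower without replicate 3 in the E2 comparison, and 184 and 215 in the vehicle comparison. Timp1 was not called lower between E2 and E2 plus fulvestrant without replicate 2, without replicate 3 or without the replicate 1 sample of E2 plus fulvestrant.

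**Figure D5:**
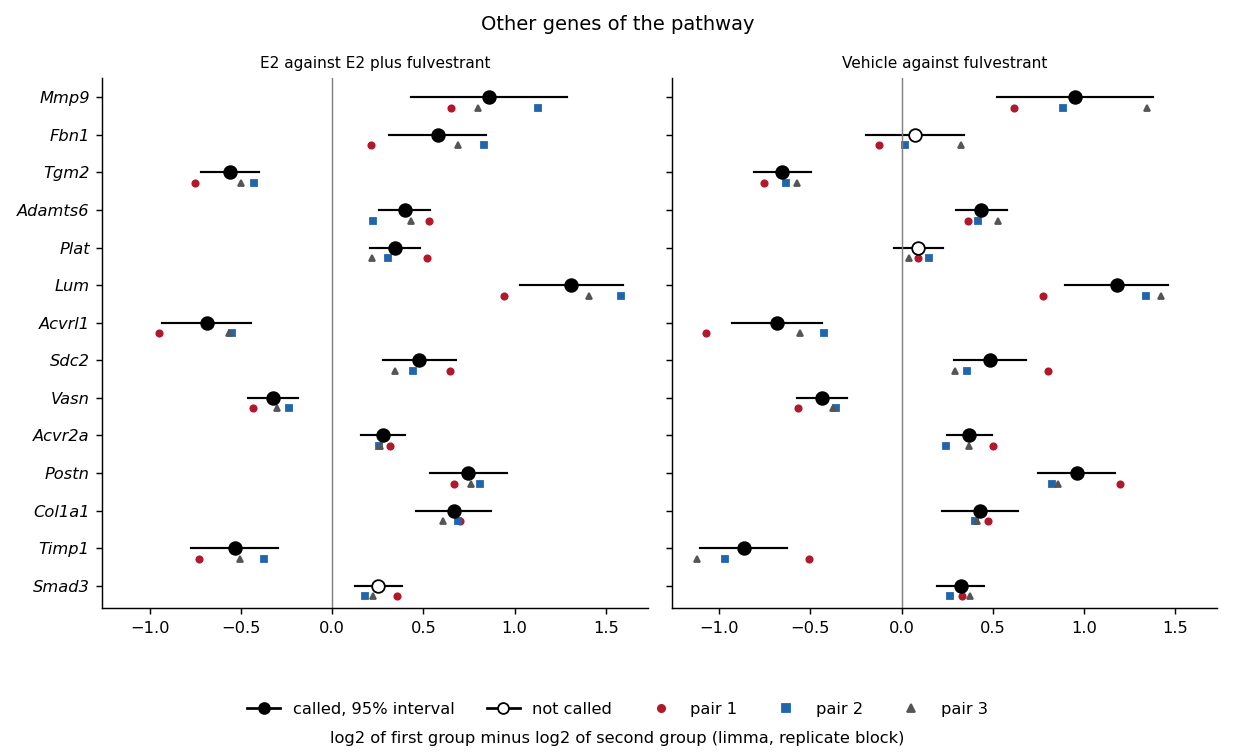
Log2 difference between groups for 14 other pathway genes in the comparisons of E2 with E2 plus fulvestrant and of vehicle with fulvestrant, drawn as limma estimates with 95% intervals (filled when called) and the 3 pair differences. Lum and Postn lie to the right and Acvrl1, Tgm2, Timp1 and Vasn to the left in both panels, while Fbn1 and Plat are filled in the first only.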

How the data were processed

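RNA-Seq of 12 HAF cultures was read as 1 table of signal values, namely normalized counts per gene and sample, as the authors deposited them. Per the labels and the study's methods, total RNA libraries depleted of ribosomal RNA were trimmed (Trimmomatic 0.39), aligned to mm10 (STAR 2.5.2) and counted per gene by strand (HTSeq 0.13.5), counts fewer than 10 were removed and the rest divided by DESeq2 (1.37) size factors. The study names a batch adjustment, but the values still separate by replicate number. Multiplied by a factor per sample, 100% of values were whole reads within 0.01, which gave the 18827792 to 44040507 reads per sample on the listed genes.

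Values were fitted as log2(value + 1) in limma 3.58.1 (R 4.3.3) with a variance trend, all 12 samples in 1 fit and the replicate number as a block, and adjusted by Benjamini-Hochberg over 13233 genes. Fold changes are on this scale. The block follows the replicate numbers in the labels. The deviations from group means of same-numbered samples correlated at 0.631 to 0.923 across genes (18 pairs, mean 0.764), against -0.862 to 0.792 for 36 pairs with different numbers (mean -0.289, which centring on means of 3 samples makes negative).

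Symbols and positions came from GENCODE M21 (GRCm38), and promoter windows from RefSeq (GRCm38.p6). Named genes were the 10 members, up to 5 called genes per pathway list with the largest change in E2 against E2 plus fulvestrant, Smad3 and Adamts6, and the 3 nearest patterns for 1 gene per role. The members, lists and tests were chosen with earlier results of these data known, and some list genes are not reported here. Levels per kb were divided by the union of exons. Python 3.11.15, pandas 2.3.3, numpy 2.4.6 and matplotlib 3.10.9 were used. The ChIP-Seq and ATAC-seq of the study were not analysed here.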

Additional observations from a re-analysis of the deposited data

How the results depend on the processing

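Fits without the replicate block changed most calls. With all 12 samples and no replicate block, the members called higher in E2 than in E2 plus fulvestrant went from 4 to 0 and those higher in vehicle than in fulvestrant from 4 to 1, and with only the groups compared both were 0. Over all genes these fits called 38 higher and 31 lower, or 6 and 2, in the first comparison instead of 612 and 658, and 32 and 40, or 0 and 0, in the second instead of 753 and 895. With the block and only the groups compared, Ltbp3 (adjusted p = 0.0813), Mmp9 (0.0650), Sdc2 (0.0534) and Col1a1 (0.112) lost their calls between vehicle and fulvestrant, and all genes gave 330 higher and 362 lower. Leaving out 1 sample or 1 replicate number, the members called higher ranged from 1 to 4 in the first comparison and from 1 to 5 in the second. Without replicate 2 or 3, 1 member was called in the first and 2 or 1 in the second, and without replicate 1 it was 3 and 5. All genes gave 164 higher and 178 lower without replicate 2, 178 and 138 without replicate 3, in the first comparison, and 263 and 277, or 184 and 215, in the second. Without replicate 1, which leaves as many samples, they rose to 718 and 893 in the first and 981 and 1331 in the second. The cause was not tested. CPM scaling moved the splits to 673 higher and 574 lower in the first and 951 and 688 in the second, and quantile normalization to 645 and 607 in the first and 790 and 821 in the second. Without the variance trend Ltbp2 lost its call between E2 and E2 plus fulvestrant (adjusted p = 0.0634), and the cause was not tested. Pseudocounts of 0.5 and 10 and a minimum mean of 100 changed no call of the 10 genes, and no called difference reversed. Pgr kept its log2 difference of 3.28 and lost its call (adjusted p = 0.0941) with only the groups compared and no replicate block. The comparisons that differ by E2 and the interaction called 0 members under every alternative run. Over the 10 genes, same-numbered samples correlated at 0.775 to 0.983 (mean 0.880) and samples with different numbers at -0.985 to 0.962, so the ranges overlapped. The list counts under these alternatives were added after seeing the data. Planned count-model tests on recovered reads were not run, because the check used for recovered reads takes the smallest value as 1 read, while the values listed here stand for 10 reads or more.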
